A study of Homo sapiens with 6 samples.

Results

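The genes described here are 10 factors and markers of the mesenchymal state: VIM, ZEB1, ZEB2, SNAI1, SNAI2, TWIST1, CDH2, FN1, SPARC and TGFBI. Each was found by its symbol among the 61806 genes of the deposited table, and each symbol matched 1 row. They were measured by poly(A)-selected RNA-seq in HCT116, an established human colorectal carcinoma line with an epithelial character. The 3 si-NC libraries represent cells with a control short interfering RNA and carry the label wildtype. The 3 si-STRIP2 libraries came from cells labelled STRIP2 knockdown, with a short interfering RNA against STRIP2, a subunit of a phosphatase and kinase complex. Both groups were grown in the same serum-containing medium. The sequence, dose and duration of the short interfering RNAs are not given in the sources used here, and neither is whether libraries of a group were separate cultures, so p-values measure the spread between these libraries, which may be technical.

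In an epithelial-mesenchymal transition, epithelial cells lose junctions built on E-cadherin and gain a motile, matrix-producing state. Transcription factors of the SNAI, ZEB and TWIST families drive it, and the SNAI and ZEB proteins bind E-box sequences in epithelial promoters and recruit corepressors. Vimentin, N-cadherin, fibronectin, SPARC and TGFBI are the structural and matrix products by which the mesenchymal state is usually recognised. TGF-beta is a common inducer, and HCT116 is known to carry inactivating mutations in its receptor gene TGFBR2.

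Of the 10 genes, 5 had enough counts to be tested, and 4 of these passed at an edgeR adjusted p under 0.05, moving in both directions. VIM rose 1.79-fold in si-STRIP2 cells and FN1 fell 1.60-fold. SNAI2 also fell, to a fitted 5.67-fold lower level, but it met the count minimum through si-NC alone and 2 of its 3 si-STRIP2 libraries were at 3 counts, so the size of its fold is uncertain. ZEB1 was 1.39-fold higher, a call that was lost under 5 of the 12 alternatives in which it was tested. SNAI1, the most abundant of the 10 per exonic base, did not pass. The other 5 genes, TWIST1, SPARC, TGFBI, CDH2 and ZEB2, had at most 10 counts in any library. Across the table, 54.8% of 15687 tested genes passed the same test, 27.8% higher and 27.0% lower, so passing was common in this comparison. The count of passing genes among the 10 is therefore not read as a result about them.

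The library totals ranged from 17184963 to 21721218 counts. STRIP2 itself went from 3.59 ± 0.347 to 2.61 ± 0.0929 FPKM (SD, n = 3), where FPKM is fragments per kilobase of exon scaled to the library total. Its log2 fold change was -0.46 ± 0.083 (SE, edgeR adjusted p = 1.62e-05). Among 9 colorectal epithelial markers, 6 were tested, 2 rose and 3 fell (83.3% called, against 54.8% of all tested genes). EPCAM, KRT8, KRT18 and KRT19 had means between 126 and 206 FPKM in both groups. KRT19 rose by 0.22 and CDX2 by 0.38 on the log2 scale, KRT18 fell by 0.18 and KRT8 did not pass. KRT8 and KRT18 overlap on opposite strands, so some of their reads may be uncertain. EPCAM had a log2 fold change of -0.11 (edgeR adjusted p = 0.0248, over the alternatives 0.000563 to 0.147), and CDH1 is described with the ratios. CDX1 was at 0 counts in all 6 libraries, and VIL1 and LGALS4 had at most 5 counts. The summed FPKM of 9 fibroblast markers was 2.23 to 2.68 in si-NC and 1.95 to 2.20 in si-STRIP2. Nearly all of it was COL1A1, while COL1A2 and THY1 were at 0 in all libraries. The sums were 0.39 to 0.49 and 0.16 to 0.31 for 6 endothelial markers, and 0.31 to 0.60 and 0.27 to 0.51 for 6 leukocyte markers. Most of the endothelial sum was KDR, and CDH5 had at most 1 count; the part of these markers in the results was not tested. In bulk libraries, fewer cells of a kind and less RNA per cell cannot be told apart.

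The promoters of VIM, ZEB1 and FN1 are shown because these genes passed the test, in opposite directions, and were listed in the RefSeq promoter table (GRCh38.p14). Each line gives the 250 bases before the most upstream listed start, on the strand of the gene. Capitals mark CAGGTG or CACCTG (the E-box read by SNAI and ZEB proteins) and GGGCGG or CCGCCC (the GC box). They also mark TGACGTCA (the cyclic AMP response element) and TGANTCA (N is any base, so this is looser than the AP-1 element). The windows are chr10:17227991-17228240 (plus strand) for VIM, chr10:31318167-31318416 (plus strand) for ZEB1 and chr2:215436069-215436318 (minus strand) for FN1.
VIM: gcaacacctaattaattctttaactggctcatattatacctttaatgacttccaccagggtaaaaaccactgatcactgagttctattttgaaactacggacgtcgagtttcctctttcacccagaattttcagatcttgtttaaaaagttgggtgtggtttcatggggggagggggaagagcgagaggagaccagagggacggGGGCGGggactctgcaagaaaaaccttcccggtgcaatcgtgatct
ZEB1: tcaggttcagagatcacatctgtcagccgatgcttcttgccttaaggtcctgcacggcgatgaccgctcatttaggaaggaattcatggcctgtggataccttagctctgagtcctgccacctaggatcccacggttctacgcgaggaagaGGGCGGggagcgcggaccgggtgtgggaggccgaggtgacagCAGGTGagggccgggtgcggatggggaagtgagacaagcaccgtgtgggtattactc
FN1: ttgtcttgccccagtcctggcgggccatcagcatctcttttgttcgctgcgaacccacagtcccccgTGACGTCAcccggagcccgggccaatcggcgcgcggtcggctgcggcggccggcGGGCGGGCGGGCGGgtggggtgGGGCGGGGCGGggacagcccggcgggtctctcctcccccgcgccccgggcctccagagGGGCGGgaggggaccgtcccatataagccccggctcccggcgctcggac
The VIM window held 1 GC box and none of the other motifs. The ZEB1 window held 1 E-box and 1 GC box, and 1 other of the 7 ZEB1 starts in the table had E-boxes, 2 of them. The FN1 window held 1 cyclic AMP response element and 6 GC boxes, counting those that overlap. Among all 35116 windows of this length, 17.5% held the E-box on either strand, 42.6% the GC box, 1.65% the cyclic AMP response element and 6.57% TGANTCA. ZEB2, SPARC, TGFBI and CDH2 were also matched in the promoter table, and SNAI1, SNAI2 and TWIST1 were not matched. A match describes letters in the window and was not tested for binding.

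Of the 3 transcription factors tested, SNAI2 had the largest fold change. SNAI2 (ENSG00000019549, chromosome 8, 48917598 to 48921740, minus strand) encodes Slug, a zinc-finger repressor of E-cadherin. It had 37, 28 and 26 counts in the si-NC libraries and 9, 3 and 3 in the si-STRIP2 libraries. Every si-NC library lay above every si-STRIP2 library, and si-STRIP2 replicate 1 was the highest of its group. The mean FPKM level was 0.49 ± 0.030 in the si-NC libraries and 0.083 ± 0.058 in the si-STRIP2 libraries (SD, n = 3), or 17.0% of the control level. This gave a log2 fold change of -2.50 ± 0.366 (SE, edgeR adjusted p = 5.18e-07), and 23 called genes had a lower one. SNAI2 met the count minimum through the si-NC libraries alone. Its si-STRIP2 counts sum to 15, for which counting error gives an exact 95% Poisson interval of 8.40 to 24.7, against 91 (73.3 to 112) in si-NC. Without si-STRIP2 replicate 1 the log2 fold change was -3.17.

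SNAI1 (ENSG00000124216, chromosome 20, 49982980 to 49988886, plus strand) encodes Snail, the close relative of Slug. Its FPKM values were 3.05, 3.08 and 3.11 in si-NC and 2.75, 2.95 and 2.38 in si-STRIP2. All 3 si-STRIP2 values were below the lowest si-NC value, as the FPKM of 58.6% of tested genes also did not overlap between groups, in either direction. The log2 fold change was -0.19 ± 0.141 (SE) and did not pass (edgeR adjusted p = 0.246). Its 95% interval, from the normal quantile of the standard error, runs from -0.47 to 0.081, which includes 0. Within a library, the level of SNAI2 per exonic base was 17.0%, 16.0% and 14.8% of that of SNAI1 in si-NC, and 5.31%, 1.77% and 2.23% in si-STRIP2. The ratio did not overlap between groups (exact permutation test, 2-sided, p = 0.1, the smallest p that 3 against 3 allows). SNAI2 met the count minimum through si-NC alone, and its own counts had already separated. The ratio restates that fall and adds no support to it.

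ZEB1 (ENSG00000148516, chromosome 10, 31318495 to 31529814, plus strand) encodes a zinc-finger and homeodomain repressor that is held in balance with the microRNAs of the miR-200 family in epithelial cells. Its FPKM values were 0.30, 0.41 and 0.35 in si-NC and 0.50, 0.44 and 0.54 in si-STRIP2. The groups did not overlap, but the highest si-NC library and the lowest si-STRIP2 library lay close together, at 62 and 66 counts. The log2 fold change was 0.48 ± 0.168 (SE, edgeR adjusted p = 0.0160). The call was lost without si-NC replicate 1 (edgeR adjusted p = 0.109) and without si-STRIP2 replicate 3 (0.0820). It was also lost under the DESeq2 Wald test (adjusted p = 0.0666) and under limma (adjusted p = 0.126 and 0.150 with pseudocounts of 1 and 0.1), so the rise of ZEB1 depends on the test and on these libraries. Genes that overlap ZEB1 held 210.0% as many counts as ZEB1, mostly ZEB1-AS1 on the other strand, whose FPKM was 1.97 ± 0.115 in the si-NC libraries and 1.94 ± 0.201 in the si-STRIP2 libraries (SD, n = 3). Whether counting used strand is not given in the sources used here, so reads of the shared stretch cannot be assigned with certainty.

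ZEB2 and TWIST1 complete the transcription factors. ZEB2 (ENSG00000169554, chromosome 2, 144364364 to 144521057, minus strand) had 3, 0 and 2 counts in si-NC and 1, 0 and 0 in si-STRIP2. All are at or below the 3 counts taken here as the limit of detection. At its exonic size of 26151 bases, 3 counts correspond to at most 0.0067 FPKM, so ZEB2 was not detectable above that level. TWIST1 (ENSG00000122691, chromosome 7, 19020991 to 19117636, minus strand), a basic helix-loop-helix factor, had 7, 10 and 8 counts in si-NC and 10, 5 and 7 in si-STRIP2. Its counts sum to 25 (95% Poisson interval 16.2 to 36.9) and 22 (13.8 to 33.3), and the groups overlapped. These intervals cover counting error only.

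Among the structural markers, VIM rose. VIM (ENSG00000026025, chromosome 10, 17228241 to 17237593, plus strand) encodes vimentin, the intermediate filament of mesenchymal cells. It had 60, 53 and 41 counts in si-NC and 99, 87 and 77 in si-STRIP2. The mean FPKM level was 0.527 ± 0.065 in the si-NC libraries and 0.947 ± 0.081 in the si-STRIP2 libraries (SD, n = 3), and the lowest si-STRIP2 library, at 0.86, was above the highest si-NC library, at 0.59. The log2 fold change was 0.84 ± 0.162 (SE, edgeR adjusted p = 4.56e-05), and 433 called genes had a higher one. The level stayed low in both groups: 19.5% of tested genes had a lower mean FPKM than VIM over the 6 libraries. The antisense gene VIM-AS1, which overlaps the start of VIM, had 6, 8 and 2 counts in si-NC and 13, 12 and 22 in si-STRIP2 (log2 fold change 1.60 ± 0.435 SE, edgeR adjusted p = 0.00223). It met the count minimum through si-STRIP2 alone. Its share in the VIM counts was not tested, and all genes overlapping VIM held 15.1% as many counts as VIM.

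FN1 (ENSG00000115414, chromosome 2, 215360440 to 215436073, minus strand) encodes fibronectin, a glycoprotein of the extracellular matrix bound by integrins. Its FPKM values were 1.39, 1.66 and 1.38 in si-NC and 0.95, 0.85 and 0.97 in si-STRIP2. All si-STRIP2 libraries were below all si-NC libraries, and si-NC replicate 2 stood highest. The log2 fold change was -0.68 ± 0.082 (SE, edgeR adjusted p = 1.25e-08), leaving 62.4% of the control FPKM. FN1 had the most counts of the 10 genes, 1426 in si-NC and 853 in si-STRIP2, and no other gene of the table overlaps it. The FPKM of FN1 is divided by an exonic size of 17216 bases given in the table, so a shorter main transcript would have a higher level per length.

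CDH2, SPARC and TGFBI were near the limit of detection. CDH2 (ENSG00000170558, chromosome 18, 27932879 to 28177946, minus strand), the gene of N-cadherin, had 2, 1 and 0 counts in si-NC and 1, 4 and 1 in si-STRIP2. SPARC (ENSG00000113140, chromosome 5, 151661096 to 151686975, minus strand), which encodes a collagen-binding matrix protein, had 9, 2 and 2 counts in si-NC and 6, 3 and 7 in si-STRIP2. TGFBI (ENSG00000120708, chromosome 5, 136028988 to 136063818, plus strand), the gene of a matrix protein induced by TGF-beta, had 1, 3 and 2 counts in si-NC and 2, 0 and 2 in si-STRIP2. The groups overlapped for all 3 genes, and a difference was not detectable at this depth. Genes overlapping CDH2 and SPARC held 289.0% and 162.0% as many counts as these genes did. The sums of SPARC, 13 and 16 counts, have 95% Poisson intervals of 6.92 to 22.2 and 9.15 to 26.0.

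**Figure D1:**
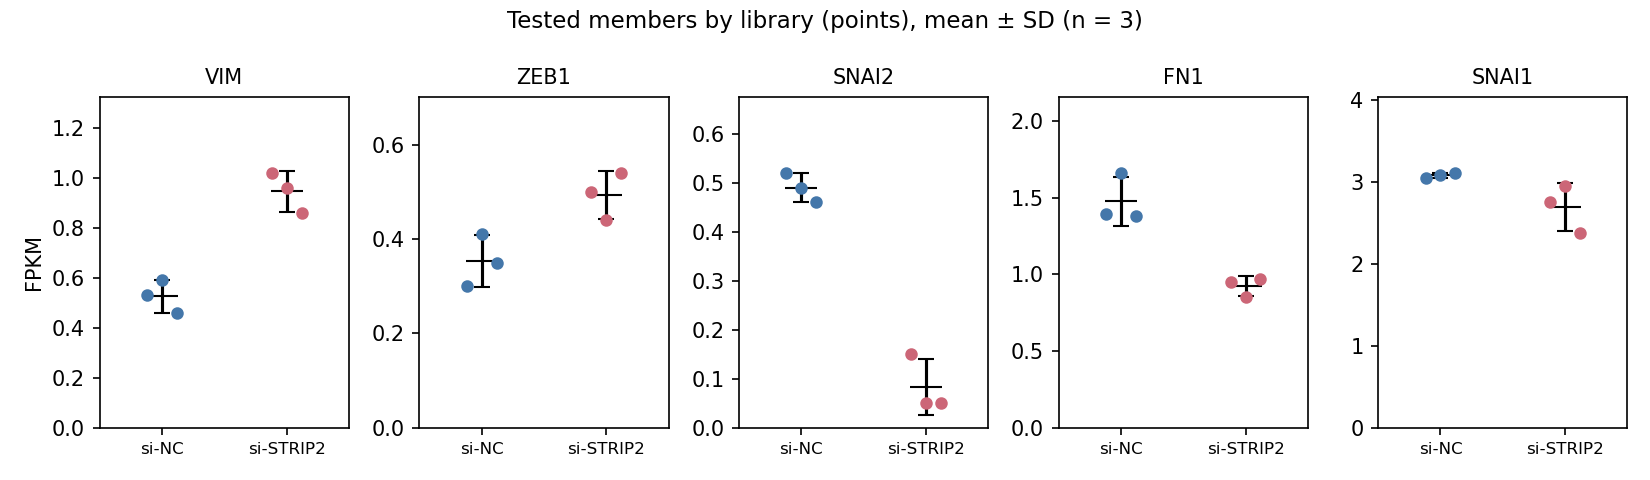
FPKM (vertical axis, from 0) of the 5 tested genes in each si-NC library (blue) and si-STRIP2 library (red), with black marks for the mean ± SD (n = 3). VIM lies between 0.86 and 1.02 in si-STRIP2 against 0.46 to 0.59 in si-NC, SNAI2 between 0.05 and 0.15 against 0.46 to 0.52.

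**Figure D2:**
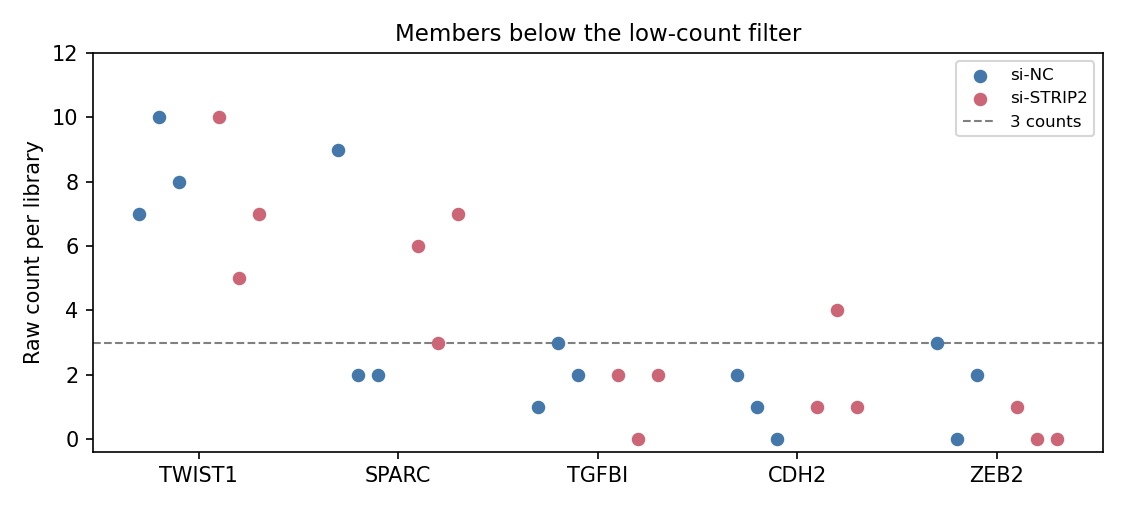
Raw counts per library (vertical axis) of the 5 genes below the count filter, in si-NC (blue) and si-STRIP2 (red), with a dashed line at 3 counts. TWIST1 is between 5 and 10 counts in both groups, and every library is at or below 3 counts for TGFBI and ZEB2.

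Per length, the order of the 10 genes in si-NC was SNAI1, FN1, VIM, SNAI2, ZEB1, TWIST1, SPARC, TGFBI, CDH2 and ZEB2. In that order the ranges of neighbouring genes overlapped for VIM and SNAI2, for TGFBI and CDH2 and for CDH2 and ZEB2. In si-STRIP2 the order was SNAI1, VIM, FN1, ZEB1, TWIST1, SNAI2, SPARC, CDH2, TGFBI and ZEB2. SNAI2 went from the fourth place to the sixth, with a range that overlapped those of TWIST1 and SPARC. The ranges of VIM and FN1, of CDH2 and TGFBI and of TGFBI and ZEB2 also overlapped in si-STRIP2, so the order within these pairs is not resolved. Both orders and the ratio below divide by exonic size, which is 17216 bases for FN1, 5176 for VIM and 1705 for SNAI1. Main transcripts shorter than these sizes could change them. The level of VIM per exonic base was 38.3%, 35.5% and 33.3% of that of FN1 in si-NC, and 107%, 113% and 88.6% in si-STRIP2 (2-sided exact permutation test, p = 0.1, the smallest possible). VIM and FN1 had already separated between groups in opposite directions, so the outcome of this test was fixed in advance and adds no support.

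CDH1, the gene of E-cadherin, also fell. It had 36.6 ± 1.43 FPKM in the si-NC libraries and 24.2 ± 0.318 in the si-STRIP2 libraries (SD, n = 3), a log2 fold change of -0.60 ± 0.040 (SE, edgeR adjusted p = 1.57e-14). The level of VIM was 1.52%, 1.56% and 1.25% of that of CDH1 in si-NC, and 4.25%, 4.01% and 3.52% in si-STRIP2. The mean ratio went from 1.44% ± 0.166 to 3.92% ± 0.371 (SD, n = 3), with no overlap between the groups (exact permutation test, 2-sided, p = 0.1, the smallest possible). VIM and CDH1 had already separated in opposite directions, so the outcome of this test was fixed in advance and adds no support. The ratio was 1 of 3 computed, and the Benjamini-Hochberg adjusted p of the permutation test was 0.1 for each. CDH1 thus had a far higher level per length than VIM in all 6 libraries.

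**Figure D3:**
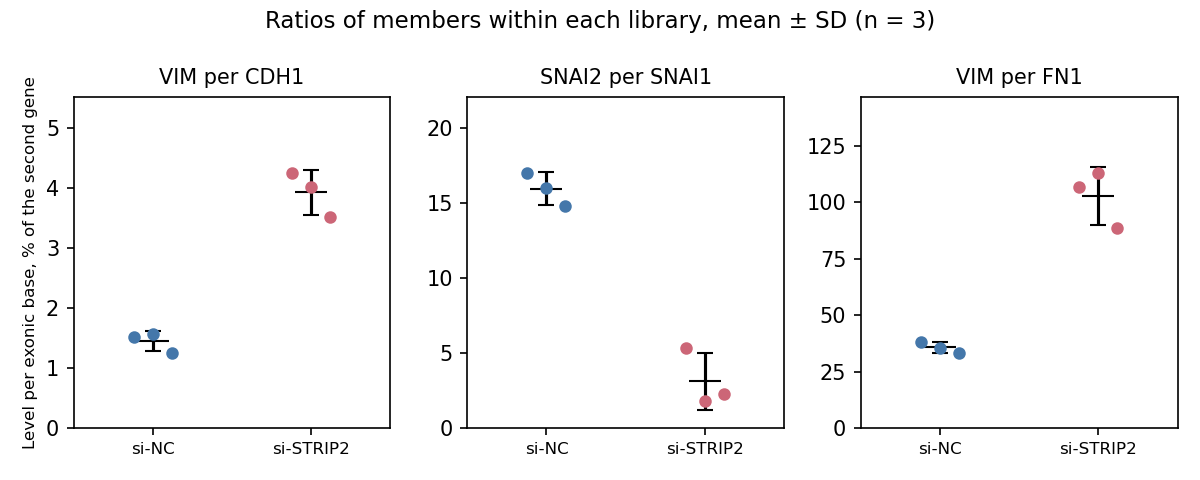
Level per exonic base of the first gene as a percent of the second (vertical axes, from 0) within each library of si-NC (blue) and si-STRIP2 (red), with mean ± SD (n = 3). VIM per CDH1 and VIM per FN1 are higher in all si-STRIP2 libraries, and SNAI2 per SNAI1 is lower, at 1.77% to 5.31% against 14.8% to 17.0%.

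Genes around the 10 were grouped in lists by their known roles. Of 14 other transcription factors linked to the transition, 9 were tested, 2 rose, 2 fell and 5 did not pass. That is 44.4% called, against 54.8% of all tested genes (27.8% higher and 27.0% lower), and the median log2 fold change was -0.010 against 0.014. ETS1, an ETS-family activator, fell from 2.97 ± 0.231 to 1.34 ± 0.127 FPKM (SD, n = 3) and FOXC1, a forkhead factor, from 25.8 ± 1.88 to 14.7 ± 0.714. SOX9 and the chromatin protein HMGA2 rose, by 0.40 and 0.31 on the log2 scale. All 4 passed, and the largest edgeR adjusted p among them was 3.34e-08, for HMGA2.

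Of 33 other matrix, adhesion and cytoskeletal genes of mesenchymal cells, 24 were tested, 7 rose, 10 fell and 7 did not pass (70.8% called, against 54.8% of all tested genes), with a median log2 fold change of -0.16. FSCN1, which encodes the actin-bundling protein fascin, rose from 29.5 ± 0.640 to 47.8 ± 2.88 FPKM (SD, n = 3). The receptor tyrosine kinase gene AXL rose by 0.47 and the tropomyosin gene TPM2 by 0.43 on the log2 scale, and NT5E, the gene of the ecto-nucleotidase CD73, fell by 0.40. All 4 passed, and the largest edgeR adjusted p among them was 2.68e-09, for TPM2. The lowest log2 fold changes on this list, named after their values were seen, were those of the matrix genes TNC (-3.24 ± 0.462 SE, edgeR adjusted p = 3.16e-07) and COL6A3 (-2.04 ± 0.273 SE, edgeR adjusted p = 1.03e-07). COL6A3 was not called by limma with either pseudocount (adjusted p = 0.0896 and 0.0670). TNC had 28, 23 and 41 counts in si-NC and 1, 7 and 1 in si-STRIP2, so it, like SNAI2, met the count minimum through si-NC alone.

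Of 22 genes of TGF-beta ligands, receptors and signal transducers, all were tested, 2 rose, 13 fell and 7 did not pass (68.2% called, against 54.8% of all tested genes, of which 27.0% were lower), with a median log2 fold change of -0.20. TGFBR1, the type I receptor gene, fell from 14.8 ± 0.633 to 8.76 ± 0.331 FPKM (SD, n = 3; log2 fold change -0.76 ± 0.046 SE, edgeR adjusted p = 9.35e-16). SMAD7, an inhibitory SMAD that TGF-beta itself induces, fell from 3.84 ± 0.108 to 1.43 ± 0.0624 FPKM (log2 fold change -1.43 ± 0.103 SE, edgeR adjusted p = 8.40e-14). The nuclear repressors TGIF1 and SKIL fell by 0.56 and 0.55 on the log2 scale. The ligand gene TGFB1 had a log2 fold change of -0.18 (edgeR adjusted p = 0.0215, over the alternatives 0.0104 to 0.0827), and TGFBR2 one of -0.13 (0.0342, over the alternatives 0.0131 to 0.0978), so both calls depend on the setting. Genes that overlap TGFB1, mostly HNRNPUL1, held 1290.0% as many counts as TGFB1, so some of its reads may be uncertain. SMAD3 had a log2 fold change of 0.066 and did not pass (edgeR adjusted p = 0.170). The genes that rose, named after their values were seen, were SKI, a nuclear repressor of SMADs, by 0.31 on the log2 scale, and TGFB2. The TGFB2 counts went from 19, 13 and 26 counts to 47, 43 and 38 (log2 fold change 1.20 ± 0.256 SE, edgeR adjusted p = 0.000165).

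Of 24 epithelial genes that ZEB and SNAI factors are known to oppose or that oppose the transition, all were tested, 4 rose, 12 fell and 8 did not pass (66.7% called, against 54.8% of all tested genes), with a median log2 fold change of -0.092. Besides CDH1, the tight junction genes OCLN, TJP1 and CLDN7 had the smallest adjusted p, with log2 fold changes of -0.66, -0.46 and -0.44 (edgeR adjusted p at most 2.77e-11, that of CLDN7). Genes overlapping CLDN7, mostly ELP5, held 26.1% as many counts. The 4 that rose, named after their values were seen, were the tight junction gene MARVELD3, by 0.67 on the log2 scale, the keratin gene KRT19, the desmosome gene DSP, by 0.22, and the membrane protease gene ST14, by 0.17. The calls of DSP and ST14 depend on the setting (edgeR adjusted p = 0.000389 and 0.00412, over the alternatives up to 0.0679 and 0.0720). Of 13 corepressor genes that SNAI and ZEB proteins recruit, all were tested, 6 rose, 4 fell and 3 did not pass (76.9% called, against 54.8% of all tested genes), with a median of 0.087. SMARCA4, the gene of a chromatin-remodelling ATPase, rose from 5.36 ± 0.182 to 8.31 ± 0.249 FPKM (SD, n = 3), and HDAC1, a histone deacetylase gene, from 58.9 ± 2.19 to 85.6 ± 0.155. KDM1A, which encodes a histone demethylase, and CHD4 rose by 0.34 and 0.41 on the log2 scale. All 4 passed, and the largest edgeR adjusted p among them was 3.99e-08, for CHD4. LIMD1 and SIN3A, named after their values were seen, also rose, by 0.36 and 0.19 on the log2 scale. The 4 that fell were likewise named after their values were seen. They were CTBP2, by 0.20, AJUBA, by 0.22, SUZ12, by 0.16, and RCOR1, by 0.15 on the log2 scale. The call of RCOR1 depends on the setting (edgeR adjusted p = 0.00736, over the alternatives up to 0.0670).

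**Figure D4:**
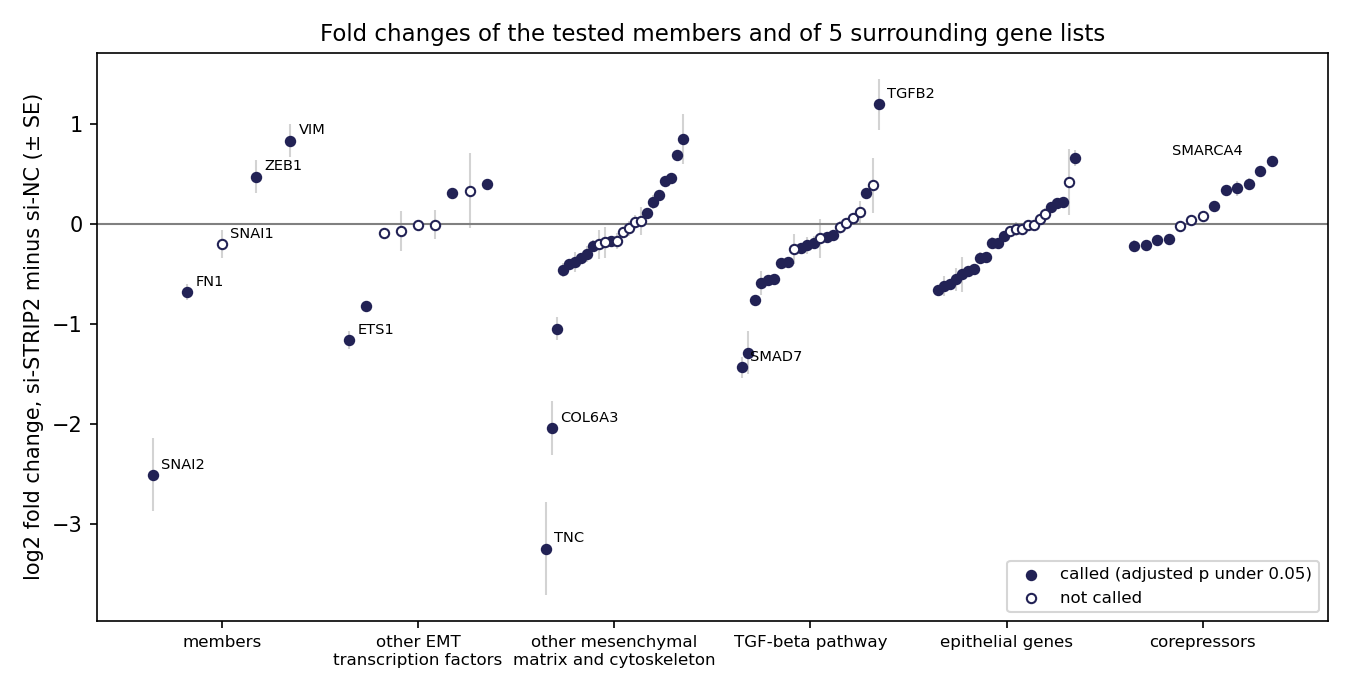
Log2 fold change of si-STRIP2 over si-NC (vertical axis, 0 means no difference) for each tested gene, sorted within the 10 genes described here and within 5 surrounding lists, with grey bars of ± 1 SE. Filled points passed at an edgeR adjusted p under 0.05; SNAI2 (-2.50), COL6A3 (-2.04) and TNC (-3.24) are the lowest points, and each list has filled points on both sides of 0.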

How the data were processed

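The authors deposited a table of raw counts per gene and library. It also holds FPKM values, which per the file headers stand beside the counts with an exonic size. The deposited FPKM differed by at most 0.005 from values recomputed from count, size and column total. The submitters' processing notes name HISAT2 2.2.1, HTSeq 0.6.1, cutadapt 1.9.1 and GRCh38.p13. Per the labels' protocols, poly(A) RNA and a directional kit were used, whereas strandedness of the counting is not given in the sources used here. Genes were kept by filterByExpr (minimum count 10) and tested in R 4.3.3 with edgeR 4.0.16 (TMM, quasi-likelihood F test, 2-sided, group as the only term), with Benjamini-Hochberg adjustment over 15687 genes. The threshold for a call was an adjusted p under 0.05. Standard errors are the absolute log2 fold change over the square root of F. DESeq2 1.42.0 and limma 3.58.1 served as alternatives. The script was tested on simulated data. No 2 libraries agreed within counting noise (chi-square per degree of freedom at least 2.05, where 1 is counting noise alone). This value was 4.48 to 15.1 for pairs within si-NC and 2.05 to 2.17 for pairs within si-STRIP2. The 10 genes, the lists and the naming rule (the 10 genes, STRIP2, CDH1, TGFBR2, TGFB1, SMAD3, genes overlapping a member, and per list the 4 genes with the smallest adjusted p and groups that do not overlap) were chosen with earlier results of these data known.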

Additional observations from a re-analysis of the deposited data

How the results depend on the processing

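The counts of calls and the fold changes of 51 of the genes named here were recomputed under 13 alternatives. Of these genes, 41 could be tested in all alternatives. For 41 of the 51, direction and side of the threshold held under every alternative in which they were tested. Many of the 51 were named for a small adjusted p or after their values were seen, so this share does not measure robustness. The 41 that held include SNAI2, TNC and VIM-AS1, which met the count minimum through 1 group alone. They also include genes that were not called, such as SNAI1, SMAD3 and KRT8. ZEB1, TGFBR2, TGFB1, COL6A3, DSP, ST14, RCOR1, EPCAM and LOX lost their call under some. ZEB1-AS1, which was not called, changed sign when replicate 2 of either group was dropped, and leaving out each library in turn gave log2 fold changes from -0.094 to 0.050. The ratios within libraries and the order of levels were not recomputed. With genes limited to an FPKM of at least 1 in 3 samples, 1 of the 10 genes was called, since that filter leaves only FN1 and SNAI1 to test. With no filter on low counts, 4 of the 10 were called, and TWIST1, SPARC, TGFBI, CDH2 and ZEB2 had edgeR adjusted p-values from 0.437 to 0.885. Leaving out each library in turn gave 3 to 4 of the 10 genes and 7690 to 8494 genes in all. The replicate numbers are not shown to pair libraries: the deviations of same-numbered libraries from their group means correlated across genes at -0.0858, -0.0133 and -0.0718. With the replicate block, 4 of the 10 genes and 8293 genes in all were called, and TGFBR2 was no longer called (edgeR adjusted p = 0.0550). On log2(FPKM + 1), limma gave a log2 fold change of -0.46 for SNAI2 and 0.35 for VIM, where the pseudocount is near or above their levels.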

Other observations

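Values of further genes around the transition, named after they were seen, are given without explanation. FOXC2, a forkhead factor of the transition, had 8, 10 and 8 counts in si-NC and 4, 3 and 3 in si-STRIP2 and was not tested. TWIST2 and GSC were at 0 counts in all 6 libraries, as was the mesenchymal cadherin gene CDH11. LOX, the gene of a collagen-crosslinking oxidase, had 24, 36 and 18 counts in si-NC and 39, 42 and 54 in si-STRIP2 (log2 fold change 0.85 ± 0.249 SE, edgeR adjusted p = 0.00418; limma adjusted p = 0.0891 and 0.0966 with pseudocounts of 1 and 0.1). In FPKM the LOX groups overlapped, with 0.37 in both si-NC replicate 2 and si-STRIP2 replicate 1. L1CAM, a cell adhesion molecule gene, had 1.62 ± 0.197 FPKM in the si-NC libraries and 0.780 ± 0.0954 in the si-STRIP2 libraries (SD, n = 3; edgeR adjusted p = 2.69e-09). PMEPA1, a gene induced by TGF-beta, had 72, 64 and 58 counts in si-NC and 27, 18 and 31 in si-STRIP2 (log2 fold change -1.28, edgeR adjusted p = 4.27e-06). KDR, the only endothelial marker that was tested, had 41, 40 and 40 counts in si-NC and 16, 19 and 20 in si-STRIP2, while CDH5 had at most 1 count in any library.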
